A study of Mus musculus with 6 samples.

Results

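The dual-specificity phosphatase (Dusp) genes compared here were 10 of the 19057 genes named on the arrays: Dusp1, Dusp2, Dusp4, Dusp5, Dusp6, Dusp7, Dusp10, Dusp11, Dusp16 and Dusp22. They were chosen by the gene symbol of their probes, from earlier results of the same comparison, so that their differences between the groups are a description and were not tested. They had 22 probes, and 9 of the 10 genes had a probe detected above background and were measured; Dusp22 was not. The material was RNA of regulatory T cells (Treg), read on Illumina bead arrays. Treg are the CD4 T cells that carry the transcription factor Foxp3 and restrain immune responses. TCRβ+CD4+Foxp3+ cells were sorted from steady-state C57BL/6 mice of genotype Foxp3gfp. The source was the mesenteric lymph node (MLN Treg, 3 samples) or the colon lamina propria, the connective tissue under the gut epithelium (cLP Treg, 3 samples). Both groups shared strain and genotype, and the labels state no age, sex or pooling of animals.

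MAP kinases carry signals from the T cell receptor, cytokines and stress to the nucleus, and they are active only while a threonine and a tyrosine of their activation loop are both phosphorylated. Dual-specificity phosphatases remove both phosphates, and several are themselves switched on by the kinase they inactivate, which makes them a feedback brake. Dusp1, Dusp2, Dusp4 and Dusp5 act in the nucleus and are induced by stimulation, Dusp6 and Dusp7 act on ERK in the cytoplasm, and Dusp10 and Dusp16 prefer JNK and p38. Not all genes of the set are MAP kinase phosphatases: Dusp11 removes phosphates from the 5′ end of RNA, and Dusp22 is an atypical member, without the kinase-binding domain, that dephosphorylates the T cell receptor kinase Lck.

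Windows of 250 bases before the gene start were taken from RefSeq (build GRCm38.p6), in which 9 of the 10 genes were found; Dusp4 was not. The windows of Dusp1, Dusp5 and Dusp16 are shown because these genes were among those most increased in cLP Treg, and that of Dusp7 because it was the lower gene. They lie at chr17:26508473-26508722 (minus strand), chr19:53528895-53529144 (plus strand), chr6:134792629-134792878 (minus strand) and chr9:106368382-106368631 (plus strand). Each is written 5′ to 3′ in the direction of the gene and ends at the base before the start. Capitals mark matches to the motifs listed after the sequences.
Dusp1: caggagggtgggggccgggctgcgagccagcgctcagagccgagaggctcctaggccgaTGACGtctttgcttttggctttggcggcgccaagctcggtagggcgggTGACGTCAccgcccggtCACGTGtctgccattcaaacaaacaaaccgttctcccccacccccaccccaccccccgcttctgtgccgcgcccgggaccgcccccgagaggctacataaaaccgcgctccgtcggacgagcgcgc
Dusp5: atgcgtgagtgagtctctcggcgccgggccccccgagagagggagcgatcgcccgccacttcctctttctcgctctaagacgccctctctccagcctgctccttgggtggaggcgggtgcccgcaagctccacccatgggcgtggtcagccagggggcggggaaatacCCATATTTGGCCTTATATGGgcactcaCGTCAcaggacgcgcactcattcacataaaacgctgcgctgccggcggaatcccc
Dusp16: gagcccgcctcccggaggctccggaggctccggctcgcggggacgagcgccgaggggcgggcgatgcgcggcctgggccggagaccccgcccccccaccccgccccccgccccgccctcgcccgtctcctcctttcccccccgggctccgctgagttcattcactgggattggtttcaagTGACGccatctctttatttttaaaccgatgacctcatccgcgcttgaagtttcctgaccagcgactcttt
Dusp7: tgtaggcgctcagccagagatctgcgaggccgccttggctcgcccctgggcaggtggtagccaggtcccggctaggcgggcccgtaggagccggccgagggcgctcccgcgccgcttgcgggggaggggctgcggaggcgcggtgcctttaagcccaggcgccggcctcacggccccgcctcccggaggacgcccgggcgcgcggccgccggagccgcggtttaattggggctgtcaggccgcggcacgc

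The motifs were searched on both strands. The cAMP response element (CRE, TGACGTCA) was present in the Dusp1 window, from -143 to -136 of the gene start, and in 1.55% of all 32851 RefSeq windows of that length. Its core (TGACG), which the full element contains, occurred in the Dusp1, Dusp5, Dusp11 and Dusp16 windows and in 17.8% of all. The Dusp5 window held a pair of adjoining CArG boxes, the motif of serum response factor, at -82 to -73 (CCATATTTGG) and -72 to -63 (CCTTATATGG). A CArG box was present in 1.47% of all windows. The E-box CACGTG was found in the Dusp1 window (-126 to -121) and the Dusp2 window (-109 to -104), against 6.02% of all. Neither the AP-1 motif (TGANTCA, 6.75% of all windows) nor the ETS motif (CCGGAA, 12% of all) had a match in the 9 windows. The Dusp7 window held none of the motifs searched.

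The arrays were alike in the share of probes detected (32.7% to 35.4%), while the median signal of detected over undetected probes was 3.33 to 4.1 in MLN Treg and 2.61 to 3.18 in cLP Treg. Across the 9157 genes tested, pairs of MLN samples correlated with Pearson's r of 0.969 to 0.977, pairs of cLP samples with 0.927 to 0.946, and mixed pairs with 0.829 to 0.845, taken over genes, which are no replicates. The number of arrays limits the precision of every value. Whether a group's samples were different animals is not stated, so each test measures only the spread between these samples. In bulk samples a change in the share of a cell type and a change in RNA per cell cannot be told apart.

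Of the 9 measured Dusp genes, 6 were higher and 1 was lower in cLP Treg at an adjusted p under 0.05, with 2 on neither side. The same fit called 12.1% of all genes higher, 20.3% lower and 32.4% in either direction. The 3 values of one group lay wholly outside those of the other in 7 of the 9 genes, against 47.0% of all genes. Because the genes were chosen from this contrast, nothing is read from these counts. The median difference was 1.16 over the 9 genes and -0.21 over all genes, on the log2 scale of cLP Treg minus MLN Treg. A plot of the level in every array gives the values gene by gene.

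**Figure D1:**
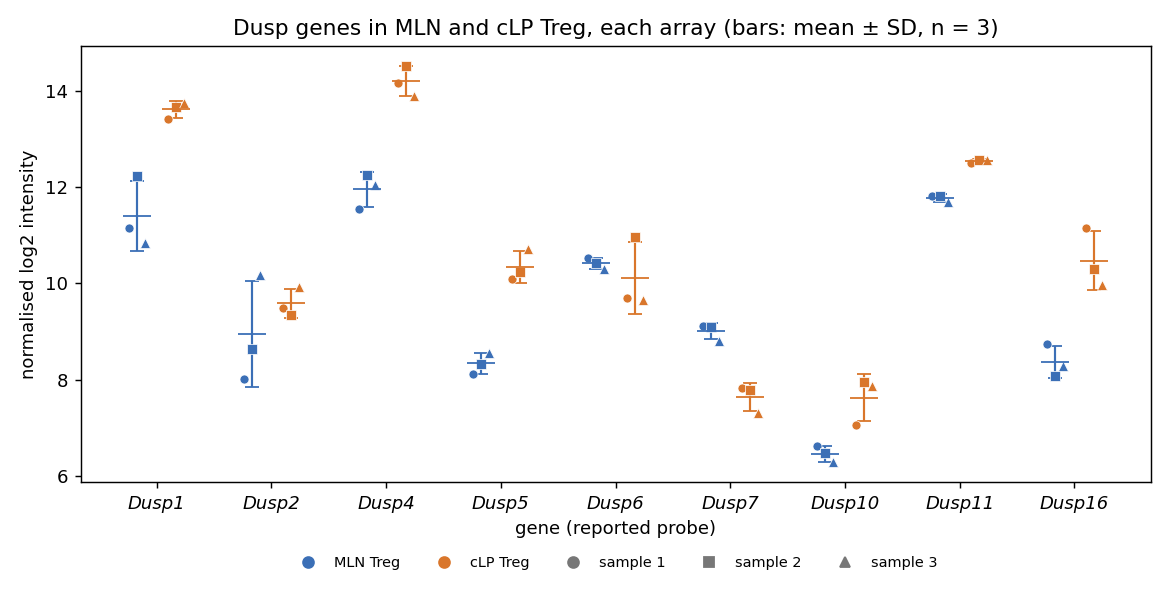
Normalised log2 intensity (y axis) of the reported probe of each measured Dusp gene (x axis) in every array; blue points are MLN Treg and orange points cLP Treg, the symbol gives the sample number, and bars give the mean ± SD (n = 3). Dusp1, Dusp4, Dusp5, Dusp10, Dusp11 and Dusp16 lie wholly higher in cLP Treg, Dusp7 lies wholly lower, and Dusp2 and Dusp6 overlap; levels of different genes come from different probes and cannot be set against each other.

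Among the nuclear, inducible phosphatases, Dusp1 is an immediate early gene whose product inactivates p38 and JNK and limits cytokine production. Its log2 intensity was 11.14, 12.23 and 10.84 in MLN samples 1 to 3 and 13.42, 13.67 and 13.75 in cLP samples 1 to 3. All cLP samples were higher than all MLN samples, and MLN sample 2 stood above the other two MLN samples. The means were 11.40 ± 0.73 and 13.61 ± 0.17 (SD, n = 3 each), a difference of 2.21 ± 0.37 (standard error) or 4.62-fold. Before normalisation the deposited intensity of its only probe (ILMN_2622983) was 3090.5, 5402.6 and 2291 in MLN Treg and 11239.8, 11198.9 and 10778.1 in cLP Treg, in the same order of groups. Among all genes tested, 314 had a more positive difference.

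Dusp4 encodes a nuclear phosphatase of ERK and JNK that is induced through ERK. Its reported probe (ILMN_2450767, the brightest) read 11.55, 12.25 and 12.05 in MLN Treg and 14.17, 14.52 and 13.90 in cLP Treg. The groups did not overlap, and the difference was 2.25 ± 0.28, or 4.74-fold. The other Dusp4 probes gave a wider gap. ILMN_2689731 read 8.01, 7.64 and 7.83 in MLN Treg against 13.81, 13.48 and 13.68 in cLP Treg, a difference of 5.83 ± 0.23 or 56.9-fold. ILMN_2870965 read 6.07, 6.38 and 5.80 against 11.56, 11.42 and 11.85, a difference of 5.53 ± 0.25 or 46.2-fold. The remaining probe, ILMN_2608995, was detected on no MLN array and on 2 cLP arrays and was not tested; its cLP mean was at least 1.36-fold higher than the MLN bound. All 3 tested Dusp4 probes were thus higher in every cLP sample, while the size of the difference depended on the probe. Where on the transcript each probe lies was not analysed here, and why the probes differ was not tested.

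Dusp5 encodes a nuclear phosphatase selective for ERK, and its promoter holds the pair of CArG boxes shown above. Its only probe (ILMN_2531737) read 8.12, 8.33 and 8.56 in MLN Treg and 10.09, 10.23 and 10.72 in cLP Treg. The groups did not overlap and the samples within each lay close together, with SDs of 0.22 and 0.33. The difference was 2.01 ± 0.26, or 4.02-fold.

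Dusp2, first known as a phosphatase of activated T cells, did not separate the groups. Its values were 8.02, 8.64 and 10.17 in MLN Treg and 9.49, 9.35 and 9.93 in cLP Treg (ILMN_3009243). MLN sample 3 was the highest of all 6 arrays, and the other two MLN samples were the lowest. The difference was 0.64 ± 0.52. Without MLN sample 3 it was 1.26 and passed the threshold, and without MLN sample 1 it was 0.18. The second probe (ILMN_1242406) also overlapped, at 6.26, 6.64 and 7.82 against 7.77, 7.29 and 8.21.

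Of the cytoplasmic ERK phosphatases, Dusp7 was the only gene of the set whose values were lower in every cLP sample. It read 9.11, 9.10 and 8.81 in MLN Treg and 7.82, 7.79 and 7.30 in cLP Treg (ILMN_2804523, its only probe), a difference of -1.37 ± 0.24 or 2.58-fold lower. Of all genes tested, 1100 had a more negative difference. Dusp6, which is closely related to Dusp7 and serves as a feedback regulator of ERK in many cells, read 10.52, 10.43 and 10.29 in MLN Treg and 9.70, 10.97 and 9.65 in cLP Treg (ILMN_2925711). In cLP Treg, sample 2 stood above all MLN samples and samples 1 and 3 below them, so the groups overlapped and the difference was -0.31 ± 0.37. The second Dusp6 probe (ILMN_1248537) differed by -0.40 ± 0.33, also with overlap, and the third (ILMN_2701321) was detected on no array.

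Of the phosphatases that prefer JNK and p38, Dusp16 was higher in cLP Treg at every probe detected. The reported probe (ILMN_2467596) read 8.74, 8.07 and 8.29 in MLN Treg and 11.16, 10.30 and 9.96 in cLP Treg, a difference of 2.11 ± 0.35 or 4.33-fold. ILMN_3112011 differed by 2.36 ± 0.31 and ILMN_2754148 by 1.69 ± 0.37, both without overlap, and ILMN_3037810 was detected on no array. At all 3 detected probes cLP sample 1 was the highest cLP sample and MLN sample 1 the highest MLN sample. Dusp10, which limits JNK activity in T cells, read 6.62, 6.48 and 6.28 in MLN Treg and 7.06, 7.96 and 7.86 in cLP Treg (ILMN_2818964). These groups did not overlap, although cLP sample 1 lay closer to the MLN samples than to the other two cLP samples, and the difference was 1.16 ± 0.29 or 2.24-fold. Dusp10 lost its place past the threshold without any one of the MLN samples (1.24, 1.18 and 1.07) or without cLP sample 2 (1.00). Its second probe (ILMN_2678724) read 5.57, 7.49 and 5.58 against 6.26, 5.91 and 7.52, with overlap, and MLN sample 2 was nearly as high as cLP sample 3.

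For the RNA phosphatase Dusp11 the probes opposed each other. The reported probe (ILMN_2711705) read 11.82, 11.81 and 11.68 in MLN Treg and 12.49, 12.57 and 12.57 in cLP Treg, a difference of 0.78 ± 0.20 or 1.71-fold without overlap. ILMN_1259683 read 12.16, 11.78 and 12.63 against 10.85, 11.85 and 11.26, a difference of -0.87 ± 0.34 with overlap. The mean of both probes differed by -0.05, so these arrays give no common direction for Dusp11. Both Dusp22 probes stayed at background, with detection p of 0.0908 to 0.253 (ILMN_2767996) and 0.0833 to 0.692 (ILMN_3162564), so Dusp22 was not detectable with these probes in either group.

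Over all 22 probes of the 10 genes, 17 were tested, 4 were detected on no array and 1, of Dusp4, was detected on too few. The probe fit called 10 of the 17 higher and 1 lower in cLP Treg, beside 32.5% of all named probes called in either direction. The plot of probe differences sets the probes of each gene side by side.

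**Figure D2:**
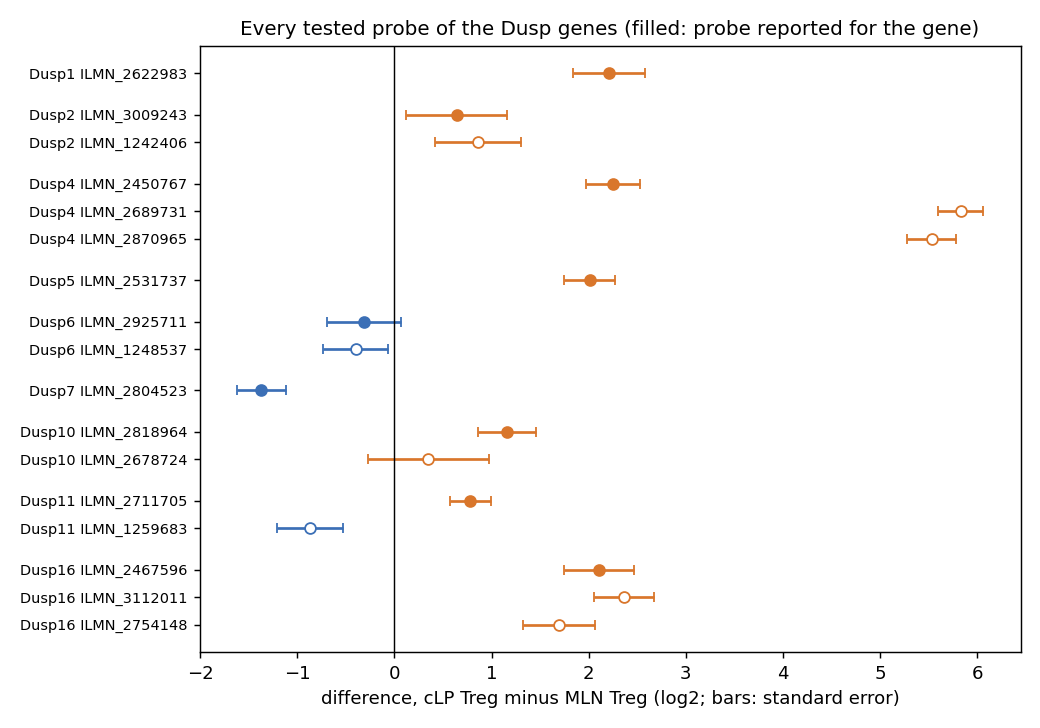
Difference between cLP Treg and MLN Treg (x axis, log2, bars give the standard error, n = 3 each) for each of the 17 tested probes of the Dusp genes (y axis); filled points are the probe reported for the gene. The 3 Dusp4 probes run from 2.25 to 5.83, the 3 Dusp16 probes from 1.69 to 2.36, and the 2 Dusp11 probes lie on opposite sides of 0.

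The set did not share a single pattern over the 6 arrays. Likeness was measured as the root mean square difference between the 6 values of a pair of genes, each centred on its own mean, so it describes the level changes used to choose the genes and carries no test. Nearest to Dusp1 were Slc38a10, Aldoc and Tmbim1 (0.20, 0.21 and 0.22), and nearest to Dusp4 were Ece1, Gjb2 and Dot1l (0.17 each). Zfp703, Wdr90 and Gpld1 were nearest to Dusp5 (0.12, 0.17 and 0.17), and Alcam, Nktr and Gm6583 to Dusp16 (0.12, 0.20 and 0.21). Ppp1r35, Igf2r and Klhl6 lay at 0.11 from Dusp7. The nearest Dusp gene to Dusp1 was Dusp4, at 0.41 and rank 45 among all genes, and the nearest to Dusp4 was Dusp5, at 0.39 and rank 128. Dusp16 was nearest among the set to Dusp4, at 0.55 and rank 271. For the genes with less clear or smaller differences, Hnrnpf, Ssx2ip and Tab3 were nearest to Dusp2 (0.27, 0.33 and 0.36), Pam16, Ppid and Strada to Dusp6 (0.14, 0.15 and 0.16), Zfp607a, Aldoa and Gm8909 to Dusp10 (0.11, 0.12 and 0.12), and Prrg3, Ptbp1 and Cep120 to Dusp11 (0.07, 0.08 and 0.08).

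The pathway around the Dusp genes was described from lists of its other parts, with limma's adjusted p over all 9157 genes. Over all genes this fit called 12.1% higher, 20.3% lower and 32.4% in either direction, to be set beside each count below. The lists were not tested as sets. Of 14 measured genes of the wider dual-specificity family, 4 rose and 2 fell in cLP Treg, with a median difference of 0.05. Ssh2, a slingshot phosphatase that activates the actin-severing protein cofilin, read 5.79, 5.36 and 5.88 in MLN Treg and 8.77, 9.39 and 9.86 in cLP Treg, a rise of 3.66 ± 0.32 (adjusted p = 0.000381). Its MLN mean is partly background, since 2 of the 3 MLN arrays detected it. Styx, a catalytically inactive relative that binds ERK in the nucleus, rose by 1.79 ± 0.35 (adjusted p = 0.00812). Dusp14, which restrains T cell receptor signalling through TAB1, was detected on no MLN array and was at least 3.42-fold higher in cLP Treg (adjusted p = 0.0051). Dusp14 entered the test only through the cLP arrays, so it had to be higher there. The mitochondrial phosphatase Ptpmt1 rose by 0.64 ± 0.20 (adjusted p = 0.0419) but missed the threshold under 9 of 16 processing alternatives.

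The family members that fell were Ssh1, the other slingshot phosphatase measured, by 1.66 on the log2 scale (standard error 0.45, adjusted p = 0.026), and the small phosphatase Dusp23, with a difference of -1.06 ± 0.23 (adjusted p = 0.0125), which missed the threshold without MLN sample 1 and in the authors' deposited values (-0.42). A second Ssh1 probe differed by -0.06 ± 0.43, and the reported Ssh1 probe or mean missed the threshold under 6 of 15 alternatives. Each had 2 cLP arrays above background. Dusp19 had a difference of -1.93 ± 0.76 that missed the threshold (adjusted p = 0.0931), with cLP values of 8.62, 9.86 and 6.40 against 10.24, 10.08 and 10.33. It passed under 3 of 16 alternatives, the authors' deposited values among them, and is named after its values were seen. Calls in the family outside the chosen genes went in both directions, as they did over all genes.

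Phosphatases of MAP kinases from other families gave 2 that rose and 1 that fell of 8 measured. Ptpn7, a tyrosine phosphatase of blood cells that binds and inactivates ERK and p38, read 10.52, 9.66 and 10.57 in MLN Treg and 6.47, 7.73 and 8.13 in cLP Treg, a difference of -2.81 ± 0.46 (adjusted p = 0.00413). The catalytic subunits of protein phosphatase 2A rose by less, Ppp2cb by 0.89 ± 0.28 (adjusted p = 0.0468) and Ppp2ca by 0.67 ± 0.21 (adjusted p = 0.0429). The signs of these 3 genes held under all 16 processing alternatives, but Ppp2cb missed the threshold in 9 of them and Ppp2ca in 8.

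Among the MAP kinases themselves, the substrates of the Dusp proteins, 1 of 8 measured rose and 3 fell. Mapk6 (ERK3) rose by 2.01 ± 0.36 (adjusted p = 0.00575). The p38 isoforms Mapk11 and Mapk12 had differences of -1.53 ± 0.32 (adjusted p = 0.00971) and -1.27 ± 0.31 (adjusted p = 0.0181), and Mapk7 (ERK5) -1.23 ± 0.26 (adjusted p = 0.0105). Mapk12 was above background on 1 cLP array only, so part of its cLP mean is background, and it missed the threshold without MLN sample 1 or 3. The p38 alpha gene Mapk14 (-0.46 ± 0.21, adjusted p = 0.135) and the JNK genes Mapk8 (-2.30 ± 0.78, adjusted p = 0.0574) and Mapk9 (-0.76 ± 0.25, adjusted p = 0.0542) did not pass; these 3 genes are named after their values were seen. The other Mapk8 and Mapk9 probes gave no common direction: Mapk8 differed by 0.28 ± 0.25 and 0.12 ± 0.22, and Mapk9 by 1.93 ± 0.29 (called higher), 0.05 ± 0.35 and -0.49 ± 0.28. The reported Mapk8 probe passed under 4 of 16 alternatives, the authors' deposited values among them. Under median scaling, and in the authors' deposited values, 6 MAP kinases fell in place of 3. Of the kinases upstream, Map2k3, which activates p38, rose by 2.68 ± 0.30 (adjusted p = 0.00089) while the other 4 measured MAP2 kinases did not pass. Of 15 MAP3 kinases and RAF kinases, 4 rose and 7 fell. Map3k5 was detected on no MLN array and could pass only as higher, and Braf on no cLP array and only as lower. Taok3 had a difference of -2.15 ± 0.26 (adjusted p = 0.00127) and Map3k13 of -1.20 ± 0.30 (adjusted p = 0.0194), which missed the threshold without MLN sample 1 or 3. Map3k2 was at least 2.82-fold higher in cLP Treg (adjusted p = 0.00933), with no MLN array above background. Map3k2 entered the test only through the cLP arrays and could pass only as higher. Taok1 had a difference of -2.71 ± 0.25 at its reported probe (adjusted p = 0.000418) but 1.31 ± 0.30 at another, and the second Taok3 probe differed by 0.28 ± 0.46.

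Genes that feed signals into ERK and genes that hold it back were taken separately. Of 12 measured Ras proteins, exchange factors and adaptors, 1 rose and 3 fell, but 7 fell under median scaling and 6 in the authors' deposited values. The exchange factor Rasgrp2 had a difference of -1.94 ± 0.35 (adjusted p = 0.00587). Rasgrp1, which couples the T cell receptor to Ras, had one of -1.06 ± 0.21 (adjusted p = 0.00928). The adaptor Lat had a difference of -0.90 ± 0.22 (adjusted p = 0.0194). Lat missed the threshold under 5 of 16 alternatives, each omission of an MLN sample among them. Ksr1, a scaffold of the ERK cascade, was detected on no MLN array and was at least 2.76-fold higher in cLP Treg (adjusted p = 0.0043). This gene, the 1 that rose, entered the test only through the cLP arrays and had to be higher there. With detection required on all 6 arrays 0 genes of its list rose at the probe with the highest mean. Rasgrp4, named after its values were seen, depended on the probe. Its reported probe differed by -0.35 ± 0.21 and was not called, while others, at 0.99 ± 0.29 and 1.13 ± 0.28, were called higher. Of 14 measured inhibitors of Ras and ERK signalling, 6 fell and 0 rose, with a median difference of -0.84 against -0.21 for all genes. Over all genes 20.3% fell and 12.1% rose. At an unadjusted limma p under 0.05 the count that rose was also 0, and 8 fell. Spred1, which blocks the activation of RAF, had a difference of -2.12 ± 0.37 (adjusted p = 0.00515), the Ras GTPase-activating protein Rasal3 of -1.61 ± 0.25 (adjusted p = 0.00307) and the adaptor Dok2 of -1.03 ± 0.24 (adjusted p = 0.0158). Spred1 was above background on 1 cLP array only, so part of its cLP mean is background. Dok3, Rasal1 and the ETS repressor Erf were detected on no cLP array and were at least 2.32-fold (adjusted p = 0.00313), 2.03-fold (adjusted p = 0.0274) and 1.37-fold lower (adjusted p = 0.0314); of 15 alternatives Erf missed the threshold in 10 and Rasal1 in 7. These 3 genes entered the test only through the MLN arrays, so they had to be lower in cLP Treg; with detection required on all 6 arrays 2 inhibitors fell. Without MLN sample 2 the count that fell was 3, and Dok2 missed the threshold without MLN sample 1 or 2. The feedback inhibitors Spry2, Spry3 and Spry4 were detected on no array.

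**Figure D3:**
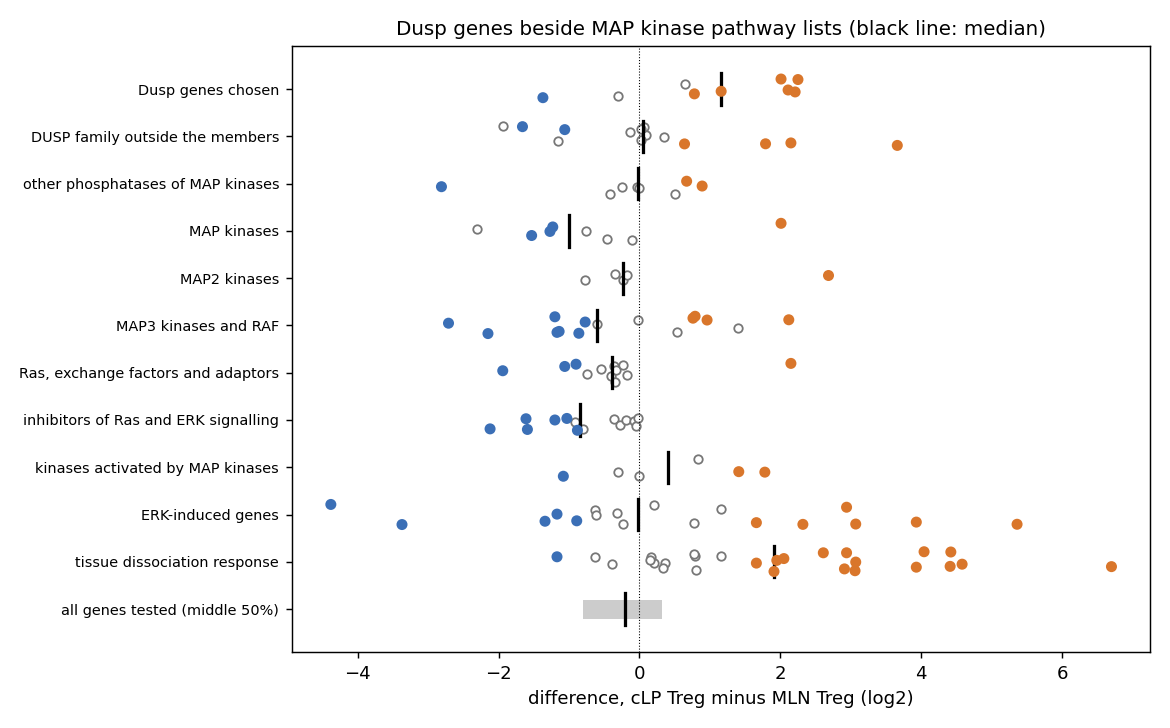
Difference between cLP Treg and MLN Treg (x axis, log2) for each measured gene of the chosen Dusp set and of the pathway lists (y axis); filled orange points rose and filled blue points fell at an adjusted p under 0.05, open points did not pass, black lines are medians, and the grey bar spans the middle 50% of all genes tested. For the Dusp row the colours are a description, because the genes were chosen from this contrast; its median is 1.16, against 0.05 for the rest of the family and -0.84 for the inhibitors of Ras and ERK signalling.

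Among kinases that MAP kinases activate, 2 of 6 rose and 1 fell. Mapkapk2, which acts below p38 and stabilises cytokine mRNAs, rose by 1.78 ± 0.29 (adjusted p = 0.00413) and Rps6ka3 by 1.41 ± 0.38 (adjusted p = 0.0261). Mknk1 had a difference of -1.08 ± 0.33 at its reported probe (adjusted p = 0.0419) and 1.02 ± 0.30 at another. Of 16 alternatives Mknk1 missed the threshold in 9 and Rps6ka3 in 6. Genes that ERK signalling is known to induce went both ways, 6 up and 5 down of 18 measured, with a median difference of -0.01. Ier2 was detected on no MLN array and could pass only as higher, and Etv5 on no cLP array and only as lower. With detection required on all 6 arrays 3 rose and 3 fell. Fosl2, an AP-1 subunit, rose by 5.36 ± 0.24 (adjusted p = 6.23e-05) and Fosb, another, by 3.93 ± 0.60 (adjusted p = 0.00309). The transcription factors Egr2 and Egr3, which follow T cell receptor stimulation, had differences of -4.38 ± 0.67 (adjusted p = 0.00307) and -3.37 ± 0.21 (adjusted p = 0.000143). Egr2 was above background on 2 cLP arrays. A second Egr3 probe differed by 0.05 ± 0.22, and the mean of both Egr3 probes by -1.66. The other Fosl2 probes differed by 4.30 ± 0.22 and 1.32 ± 0.25. Dusp1, Dusp4 and Dusp5, themselves inducible, were thus higher in samples in which some ERK-induced genes were higher and others lower.

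Cells from the colon lamina propria have to be freed from tissue, so a list of genes known to respond to tissue dissociation was compared too. Each group came from a single tissue, so an effect of isolation and one of tissue cannot be told apart. Of 27 measured members, 15 rose and 1 fell in cLP Treg, with a median difference of 1.91. Over all genes 12.1% rose and 20.3% fell. The 1 that fell was Egr1, with a difference of -1.17 ± 0.32. The other 11 did not pass, among them Jun (-0.63), Btg2 (-0.39), Hspa8 (0.21) and Dnajb1 (0.34). The heat shock gene Hspa1a rose by 6.70 ± 0.80 (adjusted p = 0.00113) and Hspa1b by 4.58 ± 0.60 (adjusted p = 0.00172). Their second probes rose by less, 3.84 ± 0.48 for Hspa1a and 0.96 ± 0.23 for Hspa1b, and the means of probes were 5.27 and 2.77. The transcription factor Klf6 rose by 4.42 ± 0.40 (adjusted p = 0.000418), and Atf3, detected on no MLN array, was at least 14.2-fold higher (adjusted p = 0.000194). Atf3 and Ier2 had to be higher, as only cLP arrays brought them into the test. The summed intensity of the list was 100958 to 110586 in MLN samples and 149800 to 176369 in cLP samples. The list shares Fosb, Fos, Junb and other genes with the ERK-induced list. Dusp1 is on neither list, but it is known to respond to dissociation as well.

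Within MLN Treg, sample 2 was the highest of the 3 samples for 17 of the 27 genes, as it was for Dusp1. Sample 1 was highest for 4 and sample 3 for 6. How often sample 2 was highest over all genes was not counted, so nothing is read from this. The count also ranks some values at background, since Atf3 and Ier2 were detected on no MLN array and Hspa1a on 1. Fos, chosen after its values were seen, read 11.06, 12.91 and 10.25 in MLN samples 1 to 3, and Hspa1b read 7.15, 9.15 and 6.85. Dusp1 was also highest there, at 12.23 against 11.14 and 10.84, and so was the reported probe of Dusp4 (12.25 against 11.55 and 12.05). In another Dusp4 probe, ILMN_2689731, MLN sample 2 was the lowest MLN sample, and neither Dusp5 nor Dusp16 was highest there. Without MLN sample 2 the Dusp1 difference was 2.62, and that of Fos was 1.91 and passed, against 1.16 ± 0.65 with all samples (limma, adjusted p = 0.216). The part of the dissociation genes in the Dusp differences was not tested.

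**Figure D4:**
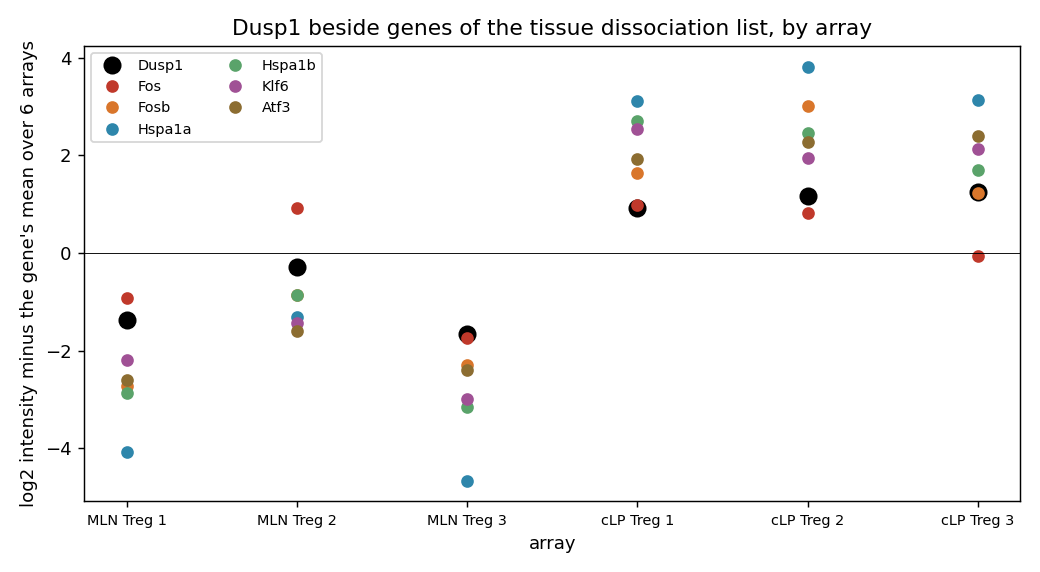
Log2 intensity of Dusp1 and 6 genes of the tissue dissociation list, picked after their values were seen (y axis, each centred on its own mean over the 6 arrays) in every array (x axis). MLN Treg sample 2 is the highest MLN sample for every gene shown, but for only 17 of the 27 measured genes of the whole list. Atf3 was detected on no MLN array and Hspa1a on 1, so their order among MLN samples ranks values at background. Dusp1 reads 12.23 there before centring against 11.14 and 10.84 in the other MLN samples. The order of samples within a group has no meaning.

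Markers of the sorted population and of other cells of the tissue are given beside these results. Their counts, too, stand beside 12.1% of all genes called higher and 20.3% lower. Foxp3 was detected on every array and differed by -0.01 ± 0.24 (adjusted p = 0.986), with differences of -0.01 to 0.55 over its 4 probes. Of the 8 measured markers of Treg and T cell identity, 2 rose and 1 fell (62073 to 63384 in summed intensity in MLN samples against 75289 to 78995 in cLP samples). Ikzf2, which encodes the Treg factor Helios, rose by 2.23 ± 0.59 (adjusted p = 0.0249) and the inhibitory receptor gene Ctla4 by 1.04 ± 0.20 (adjusted p = 0.00721). Il2ra, the interleukin 2 receptor alpha chain, fell (-1.66 ± 0.36, adjusted p = 0.0116; second probe -0.81 ± 0.36). Cd3d (-0.67), Cd3e (-0.60), Cd3g (-0.22) and Cd4 (-0.07) did not pass. Of 7 measured markers of stroma and endothelium, 5 rose, with a summed intensity of 1332 to 1793 in MLN samples and 6103 to 6898 in cLP samples; Cdh5, Col1a1 and Pdgfrb were detected on no array. Acta2, of smooth muscle and myofibroblasts, depended on the probe. Its reported probe, with no MLN array above background, was at least 34.4-fold higher in cLP Treg (limma, adjusted p = 0.000121). The other 3 probes differed by 3.26 ± 0.37, 0.90 ± 0.23 and 0.05 ± 0.26. Col3a1 and Sparc also passed, with no MLN array above background, and were at least 6.05-fold and 1.75-fold higher. At their reported probes Acta2, Col3a1 and Sparc entered the test only through the cLP arrays, so they had to be higher there. The differences of Igfbp7 (3.39) and Vim (2.08) passed, and those of Col1a2 (0.57) and Pecam1 (-0.11) did not. Vim and Pecam1, detected on every array, made up most of the MLN sum, with MLN log2 means of 9.21 and 9.49. Summed intensities of marker lists do not count cells. Both measured plasma cell markers rose (2502 to 2532 against 5051 to 5153). Jchain, with no MLN array above background, was at least 2.14-fold higher and could pass only as higher. Xbp1 had a difference of 1.02. Sdc1 and Tnfrsf17 were detected on no array. The sum was mostly Xbp1, which every array detected. Its log2 means were 11.27 in MLN Treg and 12.29 in cLP Treg, against 5.34 and 6.67 for Jchain. Of 3 measured markers of innate lymphoid and mast cells, 2 rose (132 to 403 against 741 to 2294), Hdc by 3.29 (0.72 at its second probe) and Kit by 2.16, while Klrb1c (-0.53) did not pass; Cpa3, Fcer1a, Mcpt1, Mcpt2, Ms4a2 and Ncr1 were detected on no array. Of the 3 measured B cell markers 1 fell (370 to 673 against 126 to 177), Cd79b at -2.72, while Ms4a1 (-0.40) and Blk (0.28) did not pass; Pax5 was detected on no array. Of the 3 measured markers of macrophages, dendritic cells and granulocytes 2 fell (220 to 405 against 106 to 213), Lyz1 at -1.85 and Lyz2 at -1.54, while Csf1r (-0.20) did not pass; Itgax, S100a8 and S100a9 were detected on no array. Of the 4 measured epithelial markers 0 passed limma's threshold and 1 had an unadjusted p under 0.05 (943 to 1202 against 867 to 2914): Krt8 differed by 1.64, Lgals4 by 0.82, Epcam by -0.71 and Cdh1 by 0.63; Vil1 was detected on no array. Of 2 measured markers of CD8 and cytotoxic T cells 1 rose (4874 to 5861 against 3055 to 5629), Nkg7 by 1.89, while Cd8b1 (-0.78) did not pass; Cd8a, Eomes and Gzmk were detected on no array. The part of these cell types in the Dusp differences was not tested.

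The differences of Dusp1, Dusp4, Dusp5, Dusp7 and Dusp16 kept their direction and stayed past the threshold under all 16 processing alternatives, while those of Dusp10 and Dusp11 did not. The genes were chosen from this contrast and every alternative reuses the same arrays. These statements therefore describe how the values depend on processing and are no test of the genes. Their ranges were 1.89 to 2.62 for Dusp1, 1.94 to 4.54 for Dusp4, 1.43 to 2.22 for Dusp5, -1.75 to -1.05 for Dusp7 and 1.53 to 2.37 for Dusp16. In the authors' deposited log2 values the differences were 1.94 for Dusp1, 2.00 for Dusp4, 1.43 for Dusp5, 1.53 for Dusp16 and -1.28 for Dusp7, and 0.65 for Dusp10, 0.47 for Dusp11, 0.18 for Dusp2 and -0.64 for Dusp6. The upper end for Dusp4 is the mean of its 3 detected probes. Dusp2 ranged from 0.17 to 1.26 and Dusp6 from -0.79 to -0.08, Dusp10 from 0.65 to 1.45 and Dusp11 from -0.05 to 0.98. Relative to the median of all genes, which sat at -0.21, Dusp1 stood at 2.42, Dusp4 at 2.46, Dusp5 at 2.22, Dusp16 at 2.32 and Dusp7 at -1.16.

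**Figure D5:**
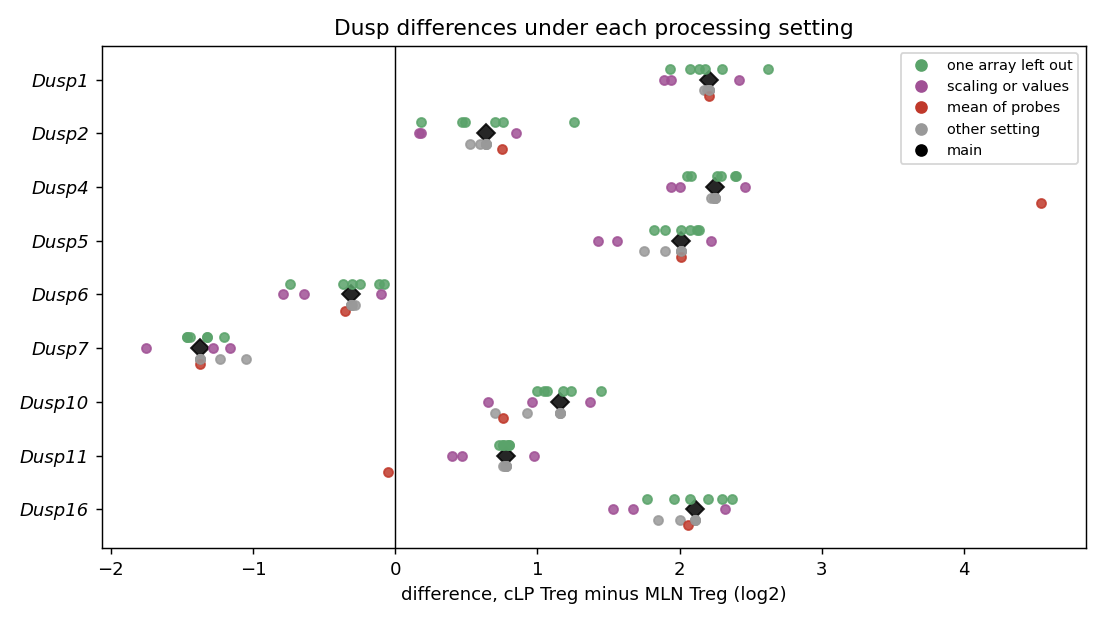
Difference between cLP Treg and MLN Treg (x axis, log2) of each measured Dusp gene (y axis) under the reported processing (black diamonds) and under 16 alternatives, coloured by kind. Dusp1, Dusp4, Dusp5 and Dusp16 stay at 1.43 or above and Dusp7 at -1.05 or below, whereas the mean of both probes takes Dusp11 to -0.05.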

How the data were processed

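Total RNA of 6 sorted samples was amplified, labelled with biotin and hybridised, per the labels' protocols. The authors deposited probe intensity on a linear scale, for which the submitters' processing notes name GenomeStudio 1.6.0, beside a fraction per probe. That deposited fraction rises with signal (rank correlation at least 0.991), so detection p was taken as 1 minus it. The authors also deposited log2 values, which equal log2 intensity minus the log2 75th percentile of each array, with medians of -0.848 to -0.596 and neither scale, centring nor direction unknown. The tables were joined by value (tolerance 0.1 in signal, largest difference 0.0347).

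Groups came from the source label, since MLN titles carry another abbreviation (MSN). The labels name no chip or scan, so no batch was fitted. Symbols came from the platform annotation: 34885 of 45281 probes had 1, 18 several and 10378 none.

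Background was corrected by normexp (neqc, offset 16) and arrays were quantile normalised in limma 3.58.1 (R 4.3.3). Probes needed detection p under 0.05 on at least 3 of 6 arrays, and the probe with the highest mean stood for a gene. Differences, cLP minus MLN Treg, came from lmFit and eBayes without a block, adjusted by Benjamini-Hochberg over 9157 genes (threshold 0.05). A fold against a group with no detected array is a bound, taken against, per array, the higher of the lowest detected signal and the probe's own. The direction of such a gene was fixed by the filter, since it entered the test only through the other group. On simulated data 74 of 100 genes shifted by 2 and 12 of 100 shifted by 1 (log2) were called, with 5 of 8957 unshifted ones. The simulation left most genes unshifted, whereas 2968 were called in the data. The adjusted threshold depends on how many genes differ, so these shares are not the sensitivity of the reported fit. The Dusp genes and lists were chosen with earlier results of these data known. Named genes were all Dusp members at every probe, up to 4 per list (8 for the family and the inhibitors) with the largest difference past the threshold, the markers measured, and the 3 genes nearest to each member. Same-numbered samples did not deviate together (r of -0.16, -0.10 and -0.01). Alternatives were other background, scaling, filter, probe and block choices, the authors' values, and each array left out; setting the median difference of genes to 0 was chosen after seeing the data.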

Additional observations from a re-analysis of the deposited data

How the results depend on the processing

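The count of 2968 genes past the threshold ranged from 1766 to 3220 when 1 array was left out, at 1766 without MLN sample 1 and 1898 without MLN sample 2, where fewer samples enter the fit. Calls were 37.3% higher in the reported fit, 21.5% under median scaling (831 higher and 3042 lower), 24.1% in the authors' deposited log2 values (882 and 2780) and 50.3% with the median difference of genes set to 0; the median difference of all genes was -0.21, -0.51, -0.30 and 0.00. With the replicate number as a block 2440 genes passed, 6 of the 7 Dusp genes past the threshold did, and Dusp11 was lost. The labels do not say whether the numbers pair the samples, and correlated deviations cannot settle it with so few samples per group. Dusp genes past the threshold numbered 5 to 7 under every alternative run, and genes of the pathway lists 40 to 69 against 60. Dusp11 reversed to -0.05 with the mean of detected probes and missed the threshold under median scaling (0.40), the block and each omission of an MLN sample. Dusp10 missed it with the mean of probes (0.76). Its second probe ranged from -0.12 (without cLP sample 3, reversed) to 0.99 with 1 array left out, and Mapk8 reversed to 0.28 at another probe when detection on all 6 arrays was required. Across alternatives the MAP kinases that fell numbered 2 to 6, the Ras proteins, exchange factors and adaptors that fell 2 to 7, the inhibitors that fell numbered 2 to 8, the dissociation genes that rose 10 to 17, and the ERK-induced genes that rose 3 to 7. Without MLN sample 2 the family members that fell numbered 1 and the ERK-induced genes that fell numbered 3. The cause of these changes was otherwise not tested. Probes near background, such as both of Dusp22, limit what can be shown.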
